A study of Mus musculus with 9 samples.

Results

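Genes for amino acid transporters were compared in cells of the mouse mammary carcinoma line 4T1 and of 2 lines that chemotherapy had selected from it. The genes were taken by symbol: every gene measured by a probe set with exactly 1 gene symbol, where that symbol begins with Slc1a, Slc3a, Slc6a, Slc7a, Slc36a, Slc38a or Slc43a. Slc7a11, the cystine and glutamate exchanger, was left out of the set and is given only where it touches it. This gave 63 of the 19938 genes on the array. Of these, 7 belong to the Slc1a family, 2 to Slc3a, 21 to Slc6a, 15 to Slc7a, 4 to Slc36a, 11 to Slc38a and 3 to Slc43a. Slc6a19os and Slc7a6os carry the family name because they lie opposite a carrier gene and are no carriers themselves, which leaves 61 carrier genes and their partner subunits.

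The groups were 4T1 cells without drug, MR20 cells and DR500 cells, with 3 arrays each. MR20 cells are the 4T1 cells that outlived methotrexate, a folate antagonist, for up to 2 weeks and were then grown without it for 2 weeks. The labels give its dose as 20 µg/ml, a unit that differs from that of the study's text. DR500 cells outlived doxorubicin, an anthracycline, raised in steps to 500 ng/ml. Some label fields of DR500 name methotrexate in its place, while their treatment text and the study name doxorubicin. The study's methods describe 1 week at each doxorubicin dose and, after selection, 2 weeks of recovery in normal medium. The sample labels of DR500 give up to 2 weeks of selection and no drug-free time. Each line came from 1 selection, all cells derive from 4T1, and the study's culture medium for 4T1 held a supplement of non-essential amino acids. The 3 arrays of a line came from triplicate wells, so the p-values measure the spread between wells, which may be technical. The titles of the 4T1 and MR20 arrays name biological replicates, and those of DR500 only samples. The study's figure legends speak of biological triplicates for all of these lines. The smallest p that permuting 3 against 3 arrays exactly can give is 0.1. Values are log2 expression, so that a difference of 1 is a doubling, and a gene was called when its adjusted p from limma was under 0.05 and its fold change over 2. "Rose" and "fell" are used for an adjusted p under 0.05 at any size.

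Amino acids cross membranes through carriers that differ in substrate and in driving force. The Slc7a light chains exchange 1 amino acid for another and reach the cell surface only when bound to a heavy chain of the Slc3a family. Slc1a, Slc6a and Slc38a carriers use the sodium gradient or exchange neutral amino acids, Slc36a carriers move small neutral amino acids, often with protons, and Slc43a carriers let large neutral amino acids pass in both directions. Leucine, arginine and glutamine that enter this way are read by the mTORC1 kinase at the lysosome. When amino acids run short, the factor ATF4 raises the transcription of many carriers and of enzymes that make amino acids. Tumour cells are known for high levels of Slc7a5 with its partner Slc3a2 and of Slc1a5.

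The ATF4 and C/EBP type element TGATGNAA, searched on both strands from 250 bases before to 50 bases after RefSeq transcription starts (GRCm38.p6), gives the sequence setting of these genes. RefSeq promoters were matched for 46 of the 63 genes, and 3 of the 46 (6.52%) held the element, against 1219 of 27025 genes (4.51%) in all. The matches are shown because Slc1a4 and Slc7a7 are among the carriers whose levels differed between the lines, while Slc6a21 lay below the array median. Slc7a11 and the amino acid response genes Asns, Chac1 and Trib3 are shown for comparison. Capitals mark the element, and each stretch reads in the direction of its gene, so that a match on the other strand appears as the reverse complement.
Slc1a4, chr11:20332699-20332728, minus strand: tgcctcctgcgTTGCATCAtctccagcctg
Slc7a7, chr14:54417927-54417956, minus strand: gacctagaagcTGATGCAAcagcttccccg
Slc7a7, chr14:54418067-54418096, minus strand: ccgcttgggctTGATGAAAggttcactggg
Slc6a21, chr7:45282834-45282863, plus strand: agaggtgagaaTTACATCAagtgggcctcc
Slc7a11, chr3:50443642-50443671, minus strand: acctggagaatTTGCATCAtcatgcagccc
Slc7a11, chr3:50443661-50443690, minus strand: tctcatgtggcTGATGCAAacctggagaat
Asns, chr6:7693214-7693243, minus strand: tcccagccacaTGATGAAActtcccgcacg
Chac1, chr2:119351038-119351067, plus strand: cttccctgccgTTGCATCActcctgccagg
Trib3, chr2:152344028-152344057, minus strand: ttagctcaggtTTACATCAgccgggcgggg

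The Slc1a4 element spans the transcription start, since its first base lies 4 bases before it. So does 1 Slc7a7 element, whose first base lies 1 base before its start. The same 8 letters as in Slc1a4, in the same orientation, begin 47 bases before the start of Slc7a11 and 193 bases before that of Chac1. Slc3a2, Slc6a9, Slc7a1 and Slc43a2 had promoters without the element, and Slc7a5, Slc1a5, Slc6a6, Slc6a8, Slc7a4 and Slc38a1 had no entry. The E-box CACGTG, a palindrome that reads alike on both strands, occurred in 9 of the 46 genes (19.57%), against 2187 of 27025 (8.09%) in all. Of those 9, Slc36a1 and Slc38a7 lay above the array median, and no gene of the set held both elements. A match describes the letters in this window and is no evidence of a bound factor. The promoter of Slc43a2, the only gene of the set that was called in both selected lines against 4T1, is shown from 250 bases before its more upstream start, at chr11:75531444-75531693 on the plus strand, and 62.8% of its bases are G or C.
Slc43a2: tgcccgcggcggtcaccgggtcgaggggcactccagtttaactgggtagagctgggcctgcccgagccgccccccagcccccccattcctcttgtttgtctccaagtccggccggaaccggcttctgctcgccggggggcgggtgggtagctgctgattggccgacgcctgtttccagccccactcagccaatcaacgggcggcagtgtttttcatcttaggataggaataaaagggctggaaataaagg

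The array median was 6.32 on the log2 scale as the mean over arrays, with a range of 6.24 to 6.38. A probe set below it may still report expression, since brightness depends on the probes as well as on the RNA, and levels of different genes are therefore not compared. By their mean over the 9 arrays, 22 of the 63 genes (34.9%) lay above the median, against 57.4% of all genes, and 41 lay below. The 22 were the neutral amino acid exchangers Slc1a4 and Slc1a5, the heavy chain Slc3a2, the light chains Slc7a5, Slc7a6 and Slc7a7, the arginine and lysine carrier Slc7a1, and Slc7a4. They also held Slc6a6 for taurine, Slc6a8 for creatine, Slc6a9 for glycine, Slc6a17, Slc36a1, Slc36a4, Slc38a1, Slc38a2, Slc38a6, Slc38a7, Slc38a9, Slc38a10, Slc43a2 and Slc7a6os. The glutamate and aspartate carriers of Slc1a, the renal and intestinal carriers Slc6a18, Slc6a19 and Slc7a9 and the dopamine carrier Slc6a3 were all below it.

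In MR20 cells, the exchangers Slc7a5, Slc7a6, Slc7a7, Slc1a4 and Slc1a5, the heavy chain Slc3a2 and the carriers Slc7a1, Slc6a9 and Slc38a7 fell, while Slc43a2, Slc6a6, Slc36a4, Slc38a10, Slc36a1, Slc6a8 and Slc38a2 rose. Of the 63 genes, 7 rose (11.1%), where 15.4% of all genes rose, and 11 fell (17.5%), where 17.1% of all genes fell. Slc43a2 was the 1 gene called up, against 1.41% of all genes, and 0 were called down, against 1.08% of all genes, with 0 beyond 2-fold also at an unadjusted p under 0.05 by limma. The median log2 fold change of the set was -0.02, and that of all genes was -0.01. In bulk RNA, fewer cells that express a gene and less RNA per cell cannot be told apart.

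Of the 18 genes that passed in MR20, 17 lay above the array median. There, 7 of 22 rose and 10 fell, where 24.5% of all genes on that side rose and 27.6% fell. Below it, 0 of 41 rose and 1 fell, the arginine and lysine carrier Slc7a3, where 3% of all genes on that side rose and 2.98% fell. At an unadjusted p under 0.05, 1 of these 41 was higher and 3 were lower.

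In DR500 cells, Slc43a2, Slc7a4, Slc36a1, Slc1a4 and Slc6a9 had the largest rises and Slc7a6os, Slc7a1 and Slc1a5 the largest falls. Of the 63 genes, 19 rose (30.2%), where 20.2% of all genes rose, and 5 fell (7.94%), where 21.3% of all genes fell. Slc43a2 was again the 1 gene called up, against 2.47% of all genes, and 0 were called down, against 3.09%, with 0 beyond 2-fold at an unadjusted p under 0.05 by limma. The median log2 fold change was 0.18 for the set and 0.07 for all genes. Both comparisons use the same 3 arrays of 4T1, so that a deviation of 4T1 would move both alike. After a repeated quantile normalization 27 of the 63 rose in DR500, and 31 rose when the median of each array was set to the same value. Over all genes the split in DR500 was 4034 rises to 4239 falls as deposited, 6096 to 3773 after the repeated normalization and 5886 to 3601 after centring.

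Above the array median, 10 of 22 rose in DR500 and 5 fell, where 28.1% of all genes there rose and 34.5% fell. Below it, 9 of 41 rose (22%) and 0 fell, where 9.59% of all dim genes rose and 3.43% fell. The dim genes that rose were Slc36a3, Slc6a4, Slc38a3, Slc7a2, Slc6a20a, Slc6a5, Slc1a3, Slc1a1 and Slc6a15, with log2 fold changes from 0.23 to 0.48. Replicate 1 of DR500 was the highest of the 3 DR500 arrays in 34 of the 41 dim genes. Without that array 5 of the 41 rose and 1 fell, and without replicate 3 of DR500 15 rose. Over the whole set, replicate 1 also deviated most from its line's mean, with a root mean square deviation of 0.152 against 0.0766 to 0.129 for the other arrays. Above the median, the number of rises was 10 with and without replicate 1.

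**Figure D1:**
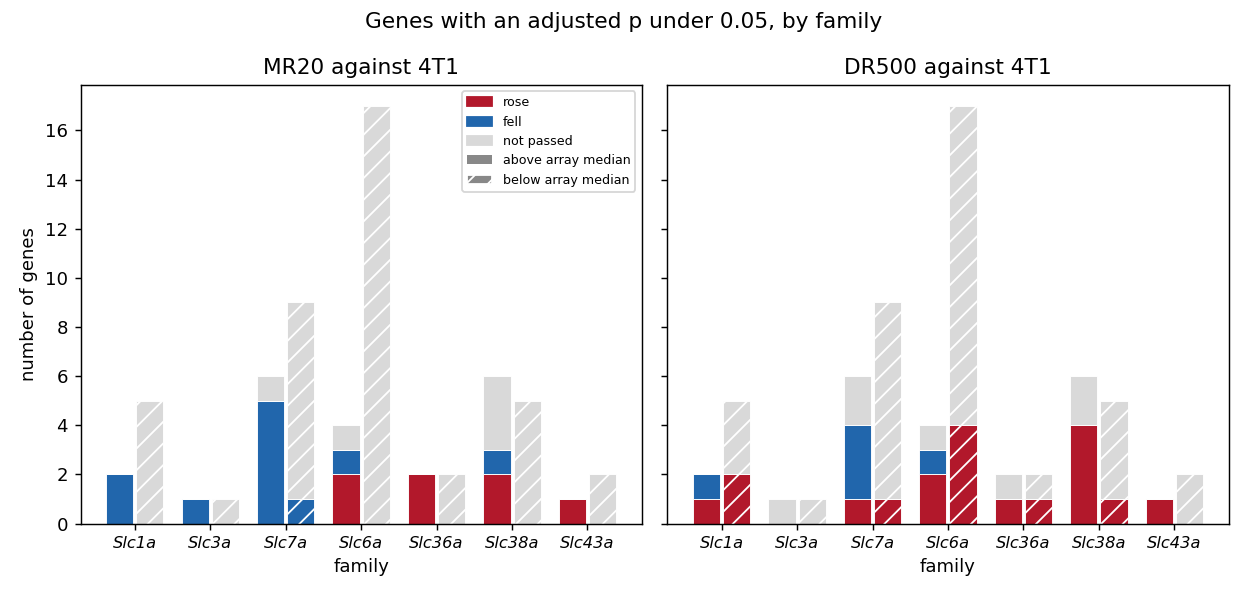
Number of genes of each family (x axis) that rose, fell or did not pass an adjusted p of 0.05 in MR20 against 4T1 (left) and in DR500 against 4T1 (right), with plain bars for genes above the array median and hatched bars for those below. In MR20 the only hatched colour is 1 Slc7a gene that fell, while in DR500 the hatched bars hold 9 genes that rose.

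Markers of cell type also differed between the lines. Of 10 epithelial markers, 9 fell in DR500, with a median log2 fold change of -4.01, while 4 rose and 1 fell in MR20. Their mean level lay between 11.66 and 11.70 on the 4T1 arrays, between 11.68 and 11.70 on the MR20 arrays and between 7.98 and 8.24 on the DR500 arrays. Among 6 fibroblast markers, Pdgfra (1.70) and Dcn (0.56) rose in DR500, and their mean level over the list went from 6.03 to 6.13 in 4T1 to 6.51 to 6.59 in DR500. None of the 5 leukocyte and 4 endothelial markers measured passed in either line against 4T1, and their mean levels stayed between 4.91 and 5.29 on all arrays. The part of the epithelial loss in the transporter values was not tested. DR500 arrays are labelled in another style than the others and no array batch is given, so a batch and the line cannot be told apart for DR500.

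**Figure D2:**
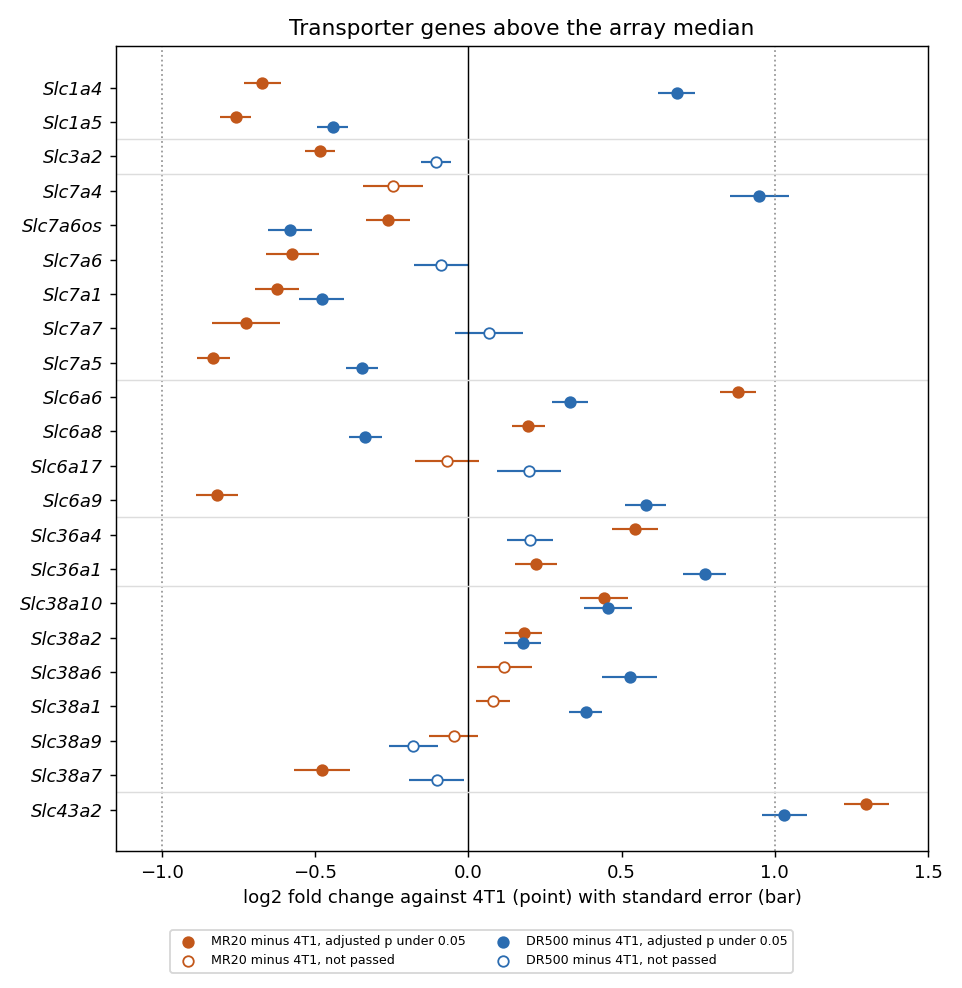
Log2 fold change against 4T1 (x axis) with its standard error for the 22 genes above the array median (y axis), grouped by family, in MR20 and in DR500, with filled points for an adjusted p under 0.05 and dotted lines at 2-fold. Slc43a2 lies beyond 2-fold in both lines, and Slc1a4 and Slc6a9 lie on opposite sides of 0.

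The heavy chain Slc3a2 and the light chains Slc7a5, Slc7a6 and Slc7a7 fell in MR20. Slc3a2 codes for the heavy chain CD98, which carries the light chains Slc7a5, Slc7a6, Slc7a7, Slc7a8, Slc7a10 and Slc7a11 to the surface. It read 12.81, 12.82 and 12.82 in 4T1, 12.35, 12.31 and 12.33 in MR20 and 12.72, 12.70 and 12.71 in DR500. The MR20 arrays lay below all others and the DR500 arrays lay narrowly below those of 4T1. The fall in MR20 was 0.49 on the log2 scale (SE 0.05, adjusted p = 3.57e-05). The DR500 difference of -0.10 had an adjusted p of 0.115, and it passed when the variance was allowed to follow intensity (adjusted p = 0.00868) or when only genes above the median were tested (adjusted p = 0.0437).

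Slc7a5, the light chain of the LAT1 exchanger for leucine, phenylalanine and other large neutral amino acids, had the largest fall of the set in MR20. It read 12.11, 12.16 and 12.19 in 4T1, 11.35, 11.32 and 11.29 in MR20 and 11.82, 11.77 and 11.83 in DR500. The 3 lines did not overlap, with DR500 between 4T1 and MR20. The level was 1.78-fold lower in MR20 (SE 0.05 on the log2 scale, adjusted p = 1.68e-06) and 1.27-fold lower in DR500 (adjusted p = 0.000348). DR500 stood above MR20 by 0.49 (adjusted p = 3.25e-05).

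Slc7a6 and Slc7a7 exchange cationic for neutral amino acids as the y+L light chains of Slc3a2. Slc7a7 read 8.24, 8.20 and 8.34 in 4T1, 7.57, 7.71 and 7.33 in MR20 and 8.13, 8.47 and 8.40 in DR500. It fell by 0.72 in MR20 (SE 0.11, adjusted p = 0.000559), and the DR500 arrays overlapped those of 4T1 (0.07, adjusted p = 0.653). Slc7a6 read 11.14, 11.01 and 11.14 in 4T1, 10.56, 10.40 and 10.61 in MR20 and 11.02, 10.85 and 11.15 in DR500. It also fell in MR20, by 0.57 (SE 0.09, adjusted p = 0.000517), with overlap of DR500 and 4T1 (-0.09, adjusted p = 0.441). Both were higher in DR500 than in MR20, Slc7a6 by 0.49 (adjusted p = 0.00107) and Slc7a7 by 0.79 (adjusted p = 0.000199).

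Other light chains were dim. Slc7a8, the LAT2 light chain, lay between 4.72 and 5.33 on all 9 arrays and passed in neither line, although its DR500 difference passed after centring (0.27, adjusted p = 0.0444). Slc7a9, the partner of the second heavy chain Slc3a1 in renal cystine uptake, was dim as well, and so was Slc3a1, at -0.26 in MR20 and -0.05 in DR500 without passing. Over the 9 Slc7a light chain genes and relatives, 3 fell and 0 rose in MR20, and 1 fell and 0 rose in DR500. Those that fell were among Slc7a5, Slc7a6 and Slc7a7, the only light chains of the 9 above the array median. On that side 27.6% of all genes fell in MR20 and 34.5% in DR500.

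Slc7a11, which shares the heavy chain with these genes, read 10.90, 10.86 and 11.06 in 4T1, 10.52, 10.46 and 10.50 in MR20 and 11.71, 11.73 and 11.70 in DR500. It fell by 0.45 in MR20 (SE 0.06, adjusted p = 0.000317) and rose by 0.77 in DR500 (adjusted p = 4.17e-06). Its partner Slc3a2 did not pass in DR500.

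The CAT proteins carry arginine and lysine. Slc7a1, the widespread member, read 10.32, 10.21 and 10.18 in 4T1, 9.61, 9.66 and 9.58 in MR20 and 9.87, 9.78 and 9.63 in DR500. All arrays of both selected lines lay below those of 4T1, while MR20 and DR500 overlapped. It fell by 0.62 in MR20 (SE 0.07, adjusted p = 9.47e-05) and fell by 0.48 in DR500 (SE 0.07, adjusted p = 0.000322), and the lines differed by 0.15 (adjusted p = 0.137). Slc7a3 read 5.41, 5.29 and 5.09 in 4T1, 4.61, 4.83 and 4.98 in MR20 and 5.40, 4.98 and 4.85 in DR500. The fall of 0.45 in MR20 (SE 0.15, adjusted p = 0.0387) was the only dim change there. In 5 of the 9 fits that left out 1 array, no dim gene fell in MR20.

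Slc7a4, a relative of the CAT carriers whose substrate is not established, stood apart. It read 6.84, 6.83 and 6.66 in 4T1, 6.32, 6.56 and 6.72 in MR20 and 7.69, 7.74 and 7.76 in DR500. The DR500 arrays were separate and close together, while 4T1 and MR20 overlapped. The rise in DR500 was 0.95 (SE 0.10, adjusted p = 1.99e-05), just short of 2-fold, and the MR20 difference of -0.25 did not pass (adjusted p = 0.0822). Under the repeated normalization (1.06) and under centring (1.01), the DR500 rise passed 2-fold. Slc7a6os, which lies opposite Slc7a6 and is no carrier, read 8.68, 8.59 and 8.76 in 4T1, 8.53, 8.35 and 8.36 in MR20 and 8.15, 8.03 and 8.10 in DR500. It fell by 0.26 in MR20 (adjusted p = 0.0164) and fell by 0.58 in DR500 (adjusted p = 7.74e-05), and its DR500 arrays lay below all others.

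The neutral amino acid exchangers of Slc1a parted in DR500. Slc1a5, the ASCT2 carrier of glutamine, read 11.40, 11.42 and 11.42 in 4T1, 10.66, 10.70 and 10.61 in MR20 and 10.99, 10.96 and 10.96 in DR500. The lines did not overlap, and 4T1 was highest. It fell by 0.76 in MR20 (SE 0.05, adjusted p = 2.31e-06) and fell by 0.44 in DR500 (SE 0.05, adjusted p = 4.64e-05).

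Slc1a4, the ASCT1 carrier of serine, alanine and cysteine, read 9.18, 9.07 and 9.18 in 4T1, 8.49, 8.51 and 8.42 in MR20 and 9.89, 9.76 and 9.81 in DR500. MR20 was lowest and DR500 highest, with no overlap. It fell by 0.67 in MR20 (SE 0.06, adjusted p = 1.67e-05) and rose by 0.68 in DR500 (SE 0.06, adjusted p = 7.37e-06). Between the selected lines it was 2.55-fold higher in DR500 (adjusted p = 3.92e-08). The 5 glutamate and aspartate carriers of Slc1a were dim. None passed in MR20, and Slc1a1 (0.25) and Slc1a3 (0.26) rose in DR500.

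Of the 4 Slc6a genes above the median, 2 rose and 1 fell in each line against 4T1. Of all genes above it, 24.5% rose and 27.6% fell in MR20, and 28.1% rose and 34.5% fell in DR500. Slc6a6, the taurine carrier, read 10.84, 10.80 and 10.81 in 4T1, 11.73, 11.68 and 11.68 in MR20 and 11.21, 11.05 and 11.18 in DR500. No line overlapped another. The rise was 0.88 in MR20 (SE 0.06, adjusted p = 2.19e-06) and 0.33 in DR500 (SE 0.06, adjusted p = 0.000958), and MR20 was 1.46-fold above DR500 (adjusted p = 2.75e-05). Slc6a8, the creatine carrier, read 9.42, 9.36 and 9.38 in 4T1, 9.61, 9.62 and 9.52 in MR20 and 9.09, 9.02 and 9.04 in DR500. It rose slightly in MR20 (0.20, adjusted p = 0.0179) and fell in DR500 by 0.34 (adjusted p = 0.000531). The MR20 rise did not pass without replicate 2 or 3 of 4T1 or without replicate 1 or 2 of MR20 (0.18 to 0.19).

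Slc6a9, the glycine carrier GLYT1, read 10.86, 10.85 and 10.89 in 4T1, 10.15, 10.06 and 9.93 in MR20 and 11.50, 11.37 and 11.47 in DR500. The 3 lines were again separate, with MR20 lowest and DR500 highest. It fell by 0.82 in MR20 (SE 0.07, adjusted p = 1e-05) and rose by 0.58 in DR500 (SE 0.07, adjusted p = 5.39e-05). DR500 was 2.64-fold above MR20 (adjusted p = 7.58e-08). Slc6a17, a vesicular carrier of neurons, passed in neither line. Among the 17 dim genes of the family, 0 passed in MR20, where their log2 differences ran from -0.19 to 0.24. In DR500, Slc6a4 (0.45), Slc6a20a (0.31), Slc6a5 (0.30) and Slc6a15 (0.23) rose. Of all dim genes, 3% rose and 2.98% fell in MR20, and 9.59% rose and 3.43% fell in DR500.

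Slc43a2 had the largest rise of the set in both lines. It codes for LAT4, which lets leucine, isoleucine, methionine and phenylalanine leave or enter the cell along their gradient. It read 7.48, 7.57 and 7.44 in 4T1, 8.95, 8.73 and 8.70 in MR20 and 8.52, 8.53 and 8.53 in DR500. The lines did not overlap, with 4T1 lowest and MR20 highest. The level was 2.46-fold higher in MR20 (SE 0.07 on the log2 scale, adjusted p = 7.33e-07) and 2.04-fold higher in DR500 (SE 0.07, adjusted p = 1.6e-06). MR20 stood 0.27 above DR500 (adjusted p = 0.0134). Slc43a1, the related LAT3 gene, and Slc43a3, which carries purine bases, were dim and passed in neither line against 4T1.

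**Figure D3:**
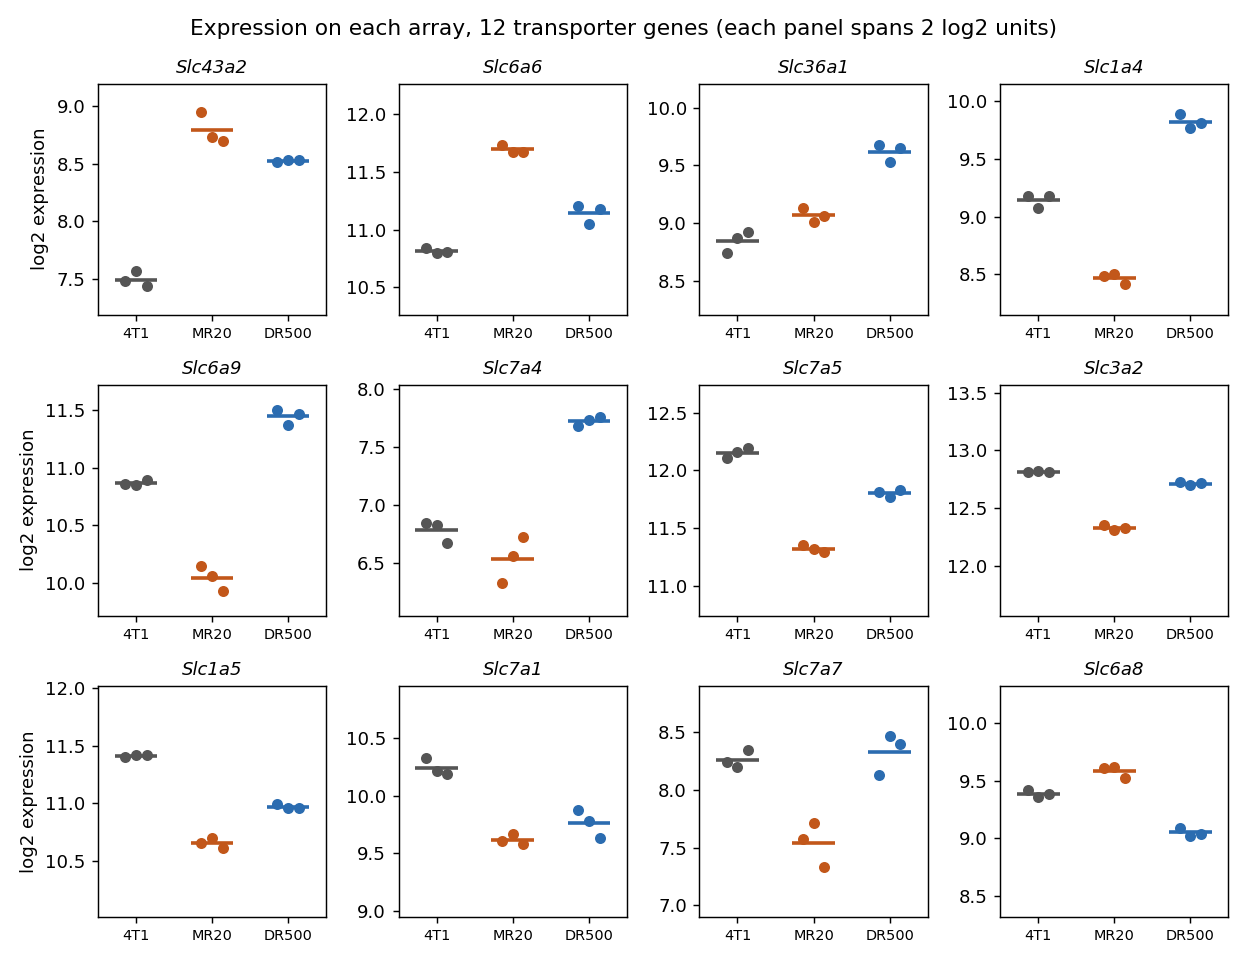
Log2 expression (y axis, 2 log2 units in each panel) of 12 genes on each of the 3 arrays of 4T1, MR20 and DR500 (x axis), with points for arrays and bars for line means. Slc43a2 and Slc6a6 are highest in MR20, Slc1a4, Slc6a9 and Slc7a4 are highest in DR500, and Slc7a5, Slc1a5 and Slc3a2 are lowest in MR20.

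The Slc36a carriers, which are found on lysosomes as well as at the surface, had no member that fell against 4T1. Slc36a1, the proton-coupled carrier PAT1 of small neutral amino acids, read 8.74, 8.87 and 8.92 in 4T1, 9.13, 9.01 and 9.06 in MR20 and 9.67, 9.53 and 9.65 in DR500. The DR500 arrays lay above all others. The rise was 0.77 in DR500 (SE 0.07, adjusted p = 8.32e-06), and the smaller difference of 0.22 in MR20 (adjusted p = 0.0323) did not pass in 4 of the 9 fits that left out 1 array. Slc36a4, a carrier of proline and tryptophan, read 7.95, 7.86 and 7.94 in 4T1, 8.48, 8.47 and 8.42 in MR20 and 7.95, 8.21 and 8.19 in DR500. It rose by 0.54 in MR20 (SE 0.07, adjusted p = 0.000271). Replicate 1 of DR500 lay close to the highest 4T1 array, and the DR500 difference of 0.20 (adjusted p = 0.0537) passed without replicate 1 (0.29, adjusted p = 0.00266).

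In the Slc38a family, the system A carriers Slc38a1 and Slc38a2, which take up glutamine and alanine with sodium, changed little. Slc38a2 read 12.62, 12.46 and 12.53 in 4T1, 12.74, 12.69 and 12.72 in MR20 and 12.77, 12.66 and 12.71 in DR500. Both selected lines lay above 4T1, by 0.18 in MR20 (adjusted p = 0.0435) and by 0.18 in DR500 (adjusted p = 0.0384). Each value failed to pass in 6 of the 9 fits that left out 1 array, though not in the same 6. Slc38a1 read 11.09, 11.00 and 11.06 in 4T1, 11.19, 11.11 and 11.11 in MR20 and 11.47, 11.40 and 11.43 in DR500, a rise of 0.38 in DR500 (adjusted p = 0.000226). Its other probe set went the other way (-0.14 in DR500), and the mean of both did not pass (0.12, adjusted p = 0.234).

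Slc38a7 and Slc38a9 are lysosomal, the first as an exporter of glutamine and the second as the arginine sensor of mTORC1. Slc38a7 read 8.33, 8.25 and 8.47 in 4T1, 8.07, 7.79 and 7.76 in MR20 and 8.21, 8.24 and 8.30 in DR500. It fell by 0.48 in MR20 (SE 0.09, adjusted p = 0.00216), and DR500 overlapped 4T1 (-0.10, adjusted p = 0.393). Slc38a9 passed in neither line (-0.05 in MR20, -0.18 in DR500), with overlapping arrays of 4T1 and MR20, and its other probe set gave -0.05 in each. Slc38a10 rose in both lines, by 0.44 in MR20 (adjusted p = 0.00145) and by 0.46 in DR500 (adjusted p = 0.000834), and Slc38a6 rose in DR500 by 0.53 (adjusted p = 0.000806).

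Set directly against each other, DR500 had higher levels than MR20 in most genes that differed. Of the 63 genes, 22 were higher in DR500 (34.9%), where 21.2% of all genes were, and 5 were lower (7.94%), where 20.6% of all genes were. Slc1a4, Slc6a9 and Slc7a4 were called higher, 3 of 63 against 2.87% of all genes, and 0 were called lower, against 3.23%, with 0 beyond 2-fold at an unadjusted p under 0.05 by limma. Above the array median 12 of 22 were higher and 5 lower, where 28.7% of all genes there were higher and 33.4% lower. The 5 that were lower in DR500 were Slc6a6, Slc6a8, Slc36a4, Slc43a2 and Slc7a6os. Below the median 10 of 41 were higher (24.4%), where 11.2% of all dim genes were, a count that went from 4 without replicate 1 of MR20 to 17 without replicate 3 of DR500. A fit of only these lines gave 6.

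Carriers of amino acids and peptides outside the set, 24 genes in all, gave 4 rises and 5 falls in MR20. These shares were near the 15.4% and 17.1% of all genes. The 24 include Slc7a11, of the Slc7a family, which counts among the falls in MR20 and the rises in DR500. They gave 10 rises and 4 falls in DR500, where 20.2% of all genes rose and 21.3% fell. Their median log2 fold change was 0.00 in MR20 and 0.17 in DR500, against -0.01 and 0.07 over all genes. Slc15a2, the peptide carrier PEPT2, rose by 3.76 in MR20 (adjusted p = 3.31e-08), and Slc15a3, a lysosomal carrier of histidine and peptides, rose by 1.21 (adjusted p = 5.41e-06). Neither passed in DR500, at 0.34 and -0.23. In DR500, the vesicular glutamate carrier Slc17a7 rose by 1.00 (adjusted p = 8.82e-06) and Ctns, the lysosomal cystine exporter, fell by 1.09 (adjusted p = 5.13e-06). Slc25a15, the mitochondrial ornithine carrier, fell by 0.87 in MR20 and fell by 1.01 in DR500.

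Most measured genes of the amino acid response list fell in each line. Beside genes known to answer amino acid shortage through ATF4, the list holds Atf4 and the kinase gene Eif2ak4. Eif2ak4 fell in DR500 (-0.38) and did not pass in MR20 (0.14). Of 19 genes of the list measured, 15 fell and 1 rose in MR20, where 17.1% of all genes fell and 15.4% rose. In DR500 15 fell and 0 rose, where 21.3% of all genes fell and 20.2% rose. Atf3, the 1 gene that rose in MR20 (0.33, adjusted p = 0.026), did not pass in DR500 (-0.14, adjusted p = 0.287). Among all genes above the array median, 27.6% fell in MR20 and 34.5% fell in DR500. The median log2 fold change of the list was -0.71 in MR20 and -0.69 in DR500, against -0.01 and 0.07 over all genes. Both comparisons share the 4T1 arrays. Aldh18a1, for proline synthesis, fell by 1.43 in MR20 and fell by 1.48 in DR500. Psat1, of serine synthesis, fell by 1.14 in MR20 and fell by 1.34 in DR500. Psph, of the same route, fell by 1.13 in MR20 and fell by 1.07 in DR500. Nupr1, a stress-induced chromatin protein, fell by 0.80 in MR20 and fell by 1.26 in DR500. Atf4 itself fell by 0.60 in MR20 (adjusted p = 8.77e-05) and fell by 0.53 in DR500 (adjusted p = 0.000106), a gene named after its values were seen. Of the carriers shown above with the element TGATGNAA, Slc1a4 and Slc7a11 rose in DR500, while Slc7a7 (0.07) and Slc6a21 (0.13) did not pass there. In MR20 Slc1a4 (-0.67), Slc7a11 (-0.45) and Slc7a7 (-0.72) fell, and Slc6a21 did not pass (-0.08). In the promoter windows, 8 of 19 genes of the list with an entry held TGATGNAA (42.11%), against 4.51% of all genes. They include Pycr1, which was not measured here. The list was drawn from genes known for this response, so the share describes the list and not these data.

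Of 37 measured genes of mTORC1 and its amino acid sensors, 8 rose and 16 fell in MR20, where 15.4% and 17.1% of all genes did. In DR500 11 rose and 10 fell, where 20.2% and 21.3% of all genes did. The median log2 fold change of the list was -0.19 in MR20 and 0.01 in DR500, against -0.01 and 0.07 over all genes. Lamtor3, which anchors the Rag GTPases at the lysosome, fell by 0.77 in MR20 (adjusted p = 3.31e-06) and was at -0.15 in DR500 (adjusted p = 0.0509). Wdr24, of the GATOR2 complex, fell by 0.77 in MR20 and fell by 0.55 in DR500. Its partner Seh1l fell by 0.29 in MR20 and fell by 0.69 in DR500. The mTOR inhibitor gene Deptor fell by 0.56 in MR20 (adjusted p = 0.00012) and rose by 0.78 in DR500 (adjusted p = 6.98e-06), and Akt1s1, another inhibitor, rose by 0.31 in MR20 and by 0.85 in DR500.

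Among 12 measured genes of glutamine and related metabolism, 1 rose and 8 fell in MR20, where 15.4% of all genes rose and 17.1% fell. In DR500 4 rose and 7 fell, where 20.2% of all genes rose and 21.3% fell. Their median log2 fold change was -0.43 in MR20 and -0.25 in DR500, against -0.01 and 0.07 over all genes. The riser in MR20 was glutamine synthetase, Glul, at 0.74 (adjusted p = 2.76e-05), and it rose by 1.07 in DR500 (adjusted p = 8.7e-07). Gpt2, a mitochondrial alanine aminotransferase, fell by 1.68 in MR20 and fell by 2.18 in DR500 (adjusted p = 1.16e-06 and 6.63e-08). Arg2, a mitochondrial arginase, fell by 1.55 in MR20 and fell by 0.68 in DR500. Got1, a cytosolic aspartate aminotransferase, fell by 1.29 in MR20 and fell by 0.66 in DR500.

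**Figure D4:**
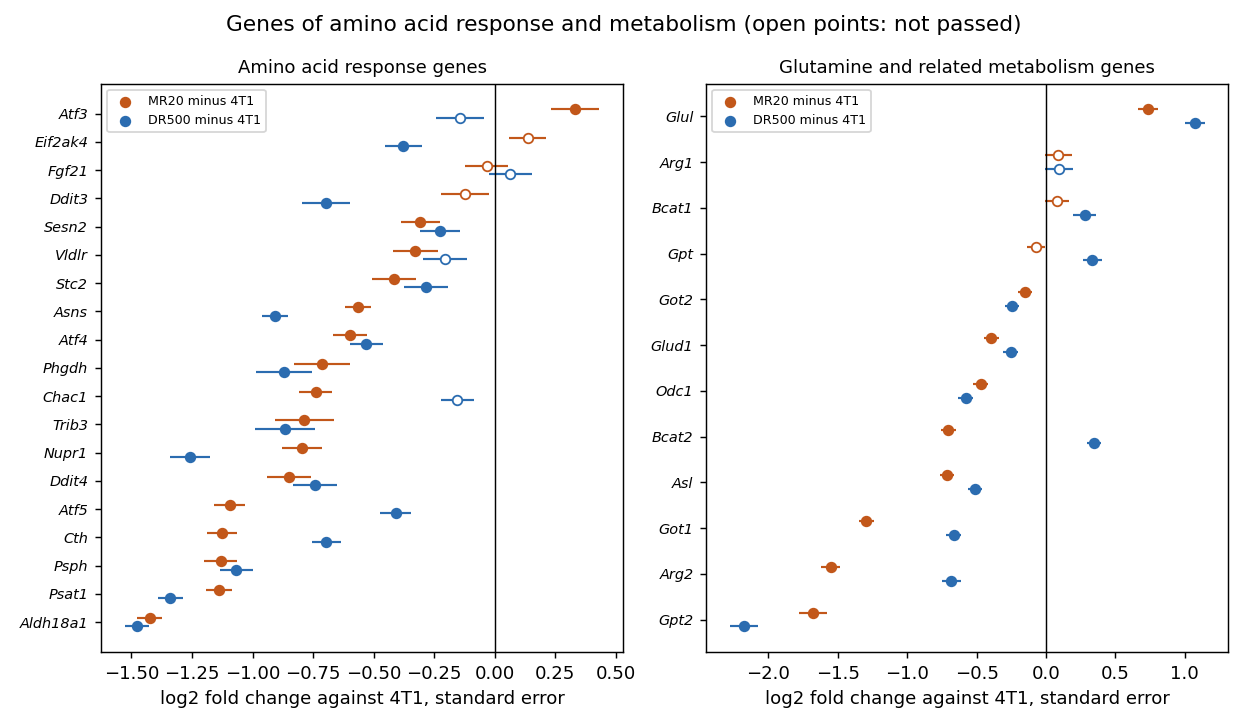
Log2 fold change against 4T1 (x axis) with its standard error for the 19 measured amino acid response genes (left) and the 12 measured genes of glutamine and related metabolism (right), in MR20 and in DR500, with open points where the adjusted p was 0.05 or more. Of the 19, 15 lie to the left of 0 with filled points in each line, and Glul lies to the right in both.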

How the data were processed

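Expression was measured in 9 RNA samples with 1-colour Affymetrix whole-transcript mouse arrays. The deposited values are on the log2 scale and were made by the authors with robust multi-array normalization in affy, which corrects the background, normalizes quantiles and summarises probe sets. The versions of affy and limma and whether all arrays were normalized together are not given in the sources used here. Quantile normalization lets a shift of bright genes move dim ones.

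Of 35556 probe sets, 21789 had 1 gene symbol, of which 21698 were matched by Entrez identifier to RefSeq (GRCm38.p6). The probe set with the highest mean over the 9 arrays stood for a gene, which left 19938 genes. The set holds 63 genes from 65 probe sets, with 2 probe sets each for Slc38a1 and Slc38a9. All lines entered 1 fit with 6 residual degrees of freedom, made in R 4.3.3 with limma 3.58.1, and p-values were adjusted by Benjamini-Hochberg over all genes in each comparison. No dim gene was removed. The fit was tested on simulated data. The number of arrays limits the precision. Fold changes of dim genes can be compressed by background.

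The genes, lists and tests were chosen with earlier results of these data known. Named were all called genes, per family the 2 genes that passed with the largest change in MR20 or DR500 against 4T1, a fixed list of 16 carriers, Slc7a11 and the 3 genes with the largest change of each other list. Further genes, such as Slc7a3, the other dim genes that rose, Atf3, Atf4, the other genes with printed elements and genes named only by role, were named after their values were seen. Lists of other carriers, amino acid response, mTORC1 sensing, glutamine metabolism and epithelial, leukocyte, fibroblast and endothelial markers were described by counts and medians. Promoter sequences are RefSeq's, GRCm38.p6. As alternatives, the fit was repeated with only the lines of a comparison, with only genes above the array median, after another quantile normalization or centring on the array median, with the mean of a gene's probe sets, a variance trend with intensity or a replicate block, and without each array in turn.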

Additional observations from a re-analysis of the deposited data

Results flagged for a closer look

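In 4 genes of the set, the MR20 and DR500 differences from 4T1 themselves differed, by the direct comparison of the lines in limma, and did so either with opposite changes against 4T1 or beyond 2-fold. DR500 minus MR20 was 1.35 on the log2 scale for Slc1a4, which fell in MR20 (-0.67) and rose in DR500 (0.68), with no overlap between the 3 arrays of each line. It was 1.40 for Slc6a9, which fell in MR20 (-0.82) and rose in DR500 (0.58). It was -0.53 for Slc6a8, which rose in MR20 (0.20) and fell in DR500 (-0.34). For Slc7a4 it was 1.19, with a rise in DR500 (0.95) and a MR20 difference that did not pass (-0.25). The direct comparison passed for 27 of the 63 genes in all. Of the 63, 34.9% were higher in DR500 and 7.94% lower, where 21.2% of all genes were higher and 20.6% lower. Of the 27, 3 had passed in opposite directions against 4T1, a count for which the share over all genes was not computed. Over the alternatives, those without 1 array included, DR500 minus MR20 ran from 1.32 to 1.40 for Slc1a4 and from 1.34 to 1.45 for Slc6a9.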

How the results depend on the processing

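The labels do not say whether same-numbered arrays of different lines were paired. Across genes, deviations of same-numbered arrays of MR20 and 4T1 correlated at -0.078, 0.045 and -0.237, those of DR500 and 4T1 at 0.237, -0.032 and 0.327 and those of DR500 and MR20 at -0.309, 0.147 and -0.294. With the number as a block, 6 genes of the set rose and 10 fell in MR20, and the dim gene Slc7a3 no longer did (0 dim falls), nor Slc36a1 rise (adjusted p = 0.0512). In DR500 against 4T1 the block gave 19 rises and 5 falls, and against MR20 it gave 21 and 5, with Slc6a4 no longer passing (adjusted p = 0.0529).

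In MR20, leaving out 1 array gave 4 to 7 rises in all and above the array median, the lowest without replicate 2 of 4T1 or replicate 1 of MR20, and 9 to 12 falls, with 0 to 1 rises and 0 to 2 falls among dim genes. In DR500 the rises were 11 when only genes above the median were tested, 31 after centring, and 15 to 25 when 1 array was left out. Calls up in DR500 were 2 after the repeated normalization and 2 after centring, where Slc7a4 passed 2-fold. Dim rises in DR500 were 15 after the repeated normalization, 19 after centring and 5 to 15 when 1 array was left out, with 0 to 1 dim falls. DR500 against MR20 gave 13 rises with only genes above the median, 6 dim rises in a fit of these lines, and 4 to 17 dim rises and 0 to 1 dim falls when 1 array was left out. Of 1143 values of the 24 named genes under the alternatives, 1099 kept their side of the threshold, 33 no longer passed and 11 passed newly. None that had passed changed sign. Some that had not passed did, such as Slc38a1 in MR20, at 0.08 in the main fit and -0.07 with the mean of its probe sets. The number of amino acid response genes that fell was 13 to 15 in MR20 and in DR500. The cause of these shifts was not tested. Dim probe sets may lie near background, which limits what small changes there can show.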
